A study of Mus musculus with 14 samples.

Results

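The regions described here are the gene bodies of the 500 most highly expressed genes of mouse tumor-derived cells. Genes were ranked by the mean of their deposited log2 RNA levels in the 3 sgControl libraries, after 37 mitochondrial symbols had been left out. Of the 500 symbols, 475 had a row of that symbol in the authors' deposited table of gene bodies, so 475 of 22470 gene bodies are members. The members were thus chosen by their sgControl RNA levels, and those levels are given below as a description only. The ranking uses counts that are not divided by transcript length, so a rank is not a level per length.

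The cells are labelled as derived from a mouse tumor and of strain C57BL/6, were used at passages 6 to 8, and received a guide RNA against Nsd3 (sgNSD3) or a control guide RNA (sgControl). The labels name neither the tumor type nor the Cas enzyme, and do not say whether a condition is a clone or a pool. The series holds 14 samples: 6 of total RNA, with 3 sgNSD3 and 3 sgControl libraries, and 8 of chromatin, from which antibody-bound nucleosomes were released with micrococcal nuclease. The chromatin samples are 4 for H3K36me2, with 2 per condition, 2 for H3K27me3, with 1 per condition, and 2 for IgG. The labels do not tell whether the RNA libraries of a condition were grown apart, so the p-values below speak of library-to-library spread, which may be technical.

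Nsd3 encodes a methyltransferase of lysine 36 of histone H3. Dimethylation of that lysine (H3K36me2) covers broad genic and intergenic domains of active chromatin, and the trimethylated form follows elongating RNA polymerase along the bodies of transcribed genes. Trimethylation of lysine 27 (H3K27me3) is placed by Polycomb repressive complexes and is known for covering silent genes. Genes with very abundant transcripts in cultured cells typically encode matrix proteins, the cytoskeleton, the translation machinery, chaperones and glycolytic enzymes.

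The stretches around the start sites of 5 members are shown, because these genes hold the extreme scores described below and each gene body begins inside the stretch shown. Each runs from 250 bases before to 50 bases after the start and was taken from RefSeq (build GRCm38.p6). Capitals mark matches, on either strand and counted also where they overlap, to the motifs CCAAT (the CCAAT box) and GGGCGG (the GC box). A search for TATAAA (a form of the TATA box) on either strand found no match in these 5. By the mean of both H3K36me2 columns, Ptgs2, Acta2 and Pgk1 were among the 6 highest members. By H3K27me3 score, Grb10 was among the 5 highest members and Trim28 among the 5 lowest. The regions are chr1:150099781-150100080 on the + strand for Ptgs2, chr19:34255324-34255623 on the - strand for Acta2, chrX:106186850-106187149 on the + strand for Pgk1, chr11:12037371-12037670 on the - strand for Grb10 and chr7:13023902-13024201 on the + strand for Trim28.
Ptgs2: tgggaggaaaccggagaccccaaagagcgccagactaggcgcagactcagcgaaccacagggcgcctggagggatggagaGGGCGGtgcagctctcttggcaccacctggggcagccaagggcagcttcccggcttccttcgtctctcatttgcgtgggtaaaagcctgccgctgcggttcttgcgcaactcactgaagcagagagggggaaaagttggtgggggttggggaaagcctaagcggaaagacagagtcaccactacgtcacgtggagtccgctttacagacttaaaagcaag
Acta2: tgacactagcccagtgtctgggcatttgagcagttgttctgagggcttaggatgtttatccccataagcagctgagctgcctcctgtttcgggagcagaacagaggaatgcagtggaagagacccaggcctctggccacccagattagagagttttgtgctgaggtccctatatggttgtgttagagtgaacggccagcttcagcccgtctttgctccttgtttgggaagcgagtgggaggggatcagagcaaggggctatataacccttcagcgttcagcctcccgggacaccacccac
Pgk1: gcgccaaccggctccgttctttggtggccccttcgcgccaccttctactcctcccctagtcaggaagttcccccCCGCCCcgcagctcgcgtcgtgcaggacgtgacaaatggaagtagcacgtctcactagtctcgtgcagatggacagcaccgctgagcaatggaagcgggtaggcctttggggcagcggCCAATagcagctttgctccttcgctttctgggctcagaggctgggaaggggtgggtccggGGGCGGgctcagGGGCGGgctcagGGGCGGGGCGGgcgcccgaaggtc
Grb10: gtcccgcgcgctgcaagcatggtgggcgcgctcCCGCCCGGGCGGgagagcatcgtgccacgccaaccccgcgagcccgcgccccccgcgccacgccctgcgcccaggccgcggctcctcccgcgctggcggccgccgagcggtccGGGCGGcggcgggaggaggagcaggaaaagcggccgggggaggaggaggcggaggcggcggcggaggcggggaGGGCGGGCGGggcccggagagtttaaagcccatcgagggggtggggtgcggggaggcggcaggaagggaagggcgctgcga
Trim28: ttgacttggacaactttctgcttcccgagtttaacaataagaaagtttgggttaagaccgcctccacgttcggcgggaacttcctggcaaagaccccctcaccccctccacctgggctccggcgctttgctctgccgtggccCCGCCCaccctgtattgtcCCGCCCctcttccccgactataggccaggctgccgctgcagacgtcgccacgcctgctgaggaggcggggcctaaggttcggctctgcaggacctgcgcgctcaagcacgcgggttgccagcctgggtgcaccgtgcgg

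The stretch of Pgk1 held 5 matches to GGGCGG and 1 to CCAAT, that of Grb10 held 5 to GGGCGG, that of Trim28 held 2 and that of Ptgs2 held 1. The stretch of Acta2 held no match to any of the 3 motifs. A start-site stretch was on file for 371 of the 475 members. GGGCGG occurred in 73.9% of them, against 75.4% of 403 genes at RNA ranks 501 to 1000 and 47.4% of 16919 gene bodies with a stretch. CCAAT occurred in 34.8% of the members' stretches, against 40.4% at ranks 501 to 1000 and 38.9% overall. TATAAA on either strand occurred in 9.97%, against 6.70% and 12.8%. The median GC content of the members' stretches was 64.3%, against 64.0% at ranks 501 to 1000 and 56.7% over all gene bodies with a stretch. By these letters, the members' start sites were near those of the next ranks. A match is a description of the sequence, not a binding site.

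The RNA libraries held between 20294828 and 21863833 counts, recovered from the deposited log2 values, and between 26421 and 26774 genes with reads. Levels are given as normalized counts, meaning recovered counts divided by each library's size factor. Nsd3, the gene the guide was aimed at, had 21989, 22012 and 21837 normalized counts in the libraries labelled sgNSD3, against 14568, 14402 and 14675 in those labelled sgControl. Its RNA was thus higher and not lower in every library labelled sgNSD3, so directions below are those of the labels. Of 6 mesenchymal markers, Col1a1, Col1a2, Fn1, Vim and Sparc were members and Postn was not. Together the 6 summed to between 1279018 and 1287221 normalized counts in the sgNSD3 libraries, against between 1140834 and 1223935 in the sgControl libraries. The higher sum came mainly from Fn1 (means of 390444 and 306759) and Col1a1 (429867 and 380556). Col1a2 (280299 and 300518) and Sparc (130545 and 137838) went the other way, and Vim (51820 and 51165) and Postn (228 and 219) differed little. Epcam and Cd3e had 0 counts in every library. The 7 epithelial markers together summed to between 3067 and 3100 normalized counts in the sgNSD3 libraries, against between 4263 and 4824 in the sgControl libraries, most of it from Krt19, and none of them is a member. The summed neuronal markers lay between 173 and 200 in sgNSD3, against between 98.4 and 135 in sgControl. Most of that was Tubb3 (means of 180 and 109), while Syp went the other way (5.68 and 7.75) and Rbfox3 had 0.645 and 0.348. The endothelial, immune and muscle markers summed to at most 86.1 in any library. In bulk RNA, fewer cells of a type and less RNA per cell cannot be told apart, and the part of these markers in the results below was not tested.

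Across the members, H3K36me2 scores lay mostly above 0 and H3K27me3 scores mostly below 0. Each gene body carries 3 signed scores in the authors' deposited table, 1 of them for H3K27me3 and the others for H3K36me2 in samples 1 and 2, and its header leaves unstated what was compared with what. No direction between sgNSD3 and sgControl can therefore be read from a score, and with no value per library nothing can be tested between conditions. In the authors' deposited table, 64 of 475 members (13.5%, exact 95% interval 10.5% to 16.9%) lay above 0 for H3K27me3, against 31.5% of all 22470 gene bodies. In the H3K36me2 sample 1 column of the authors' deposited table, 447 members (94.1%, 91.6% to 96.0%) lay above 0, against 89.4% of all. In the sample 2 column of the authors' deposited table, 462 members (97.3%, 95.4% to 98.5%) lay above 0, against 92.4% of all. These intervals cover the counting of gene bodies only, since gene bodies are not replicates of a condition.

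The members' median H3K27me3 score in the authors' deposited table was -0.0466, against -0.0258 over all gene bodies, and the members ranged between -0.298 and 0.379. For H3K36me2 sample 1 the members' median in the authors' deposited table was 0.0776, against 0.0757 over all, with a range of -0.114 to 0.730. For sample 2 it was 0.160 in the authors' deposited table, against 0.125 over all, with a range of -0.0432 to 0.821. No member was at exactly 0 in any column, and the same held at ranks 501 to 1000, against 2.33% to 2.51% of all gene bodies. The combination of an H3K27me3 score below 0 with both H3K36me2 scores above 0 was found in 377 members (79.4%), against 83.9% of 484 gene bodies at ranks 501 to 1000 and 58.8% of all. Both H3K36me2 scores were below 0 in 0 members, against 0 gene bodies at ranks 501 to 1000 and 0.788% of all. The 2 scores had opposite signs in 41 members (8.63%), against 6.82% at ranks 501 to 1000 and 11.4% of all.

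Read against RNA rank, the members' scores lay near those of the next ranks and farthest from those of genes without reads. In the authors' deposited table, the share with H3K27me3 above 0 was 13.5% in the members, 9.50% at ranks 501 to 1000, 11% at ranks 1001 to 2000, 12.8% at ranks 2001 to 5000 and 17.1% at ranks 5001 to 10000. It reached 33.9% at lower ranks with reads and 57.7% in the 5117 gene bodies whose genes had no reads in sgControl. The exact intervals of the members and of ranks 501 to 1000 (7.04% to 12.5%) overlap. In sample 2 of H3K36me2 the median of the authors' deposited table was 0.160 in the members, 0.155 at ranks 501 to 1000, 0.134 at ranks 5001 to 10000 and 0.0851 in genes without reads. For sample 1 the members' median of 0.0776 in the authors' deposited table lay below the 0.0900 of ranks 501 to 1000 and above the 0.0514 of genes without reads. The classes between these, from rank 1001 down to the lowest ranks with reads, had sample 1 medians between 0.0773 and 0.0781, near that of the members. No score pattern is called particular to the 500 highest-expressed genes, and no test between rank classes was made.

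**Figure D1:**
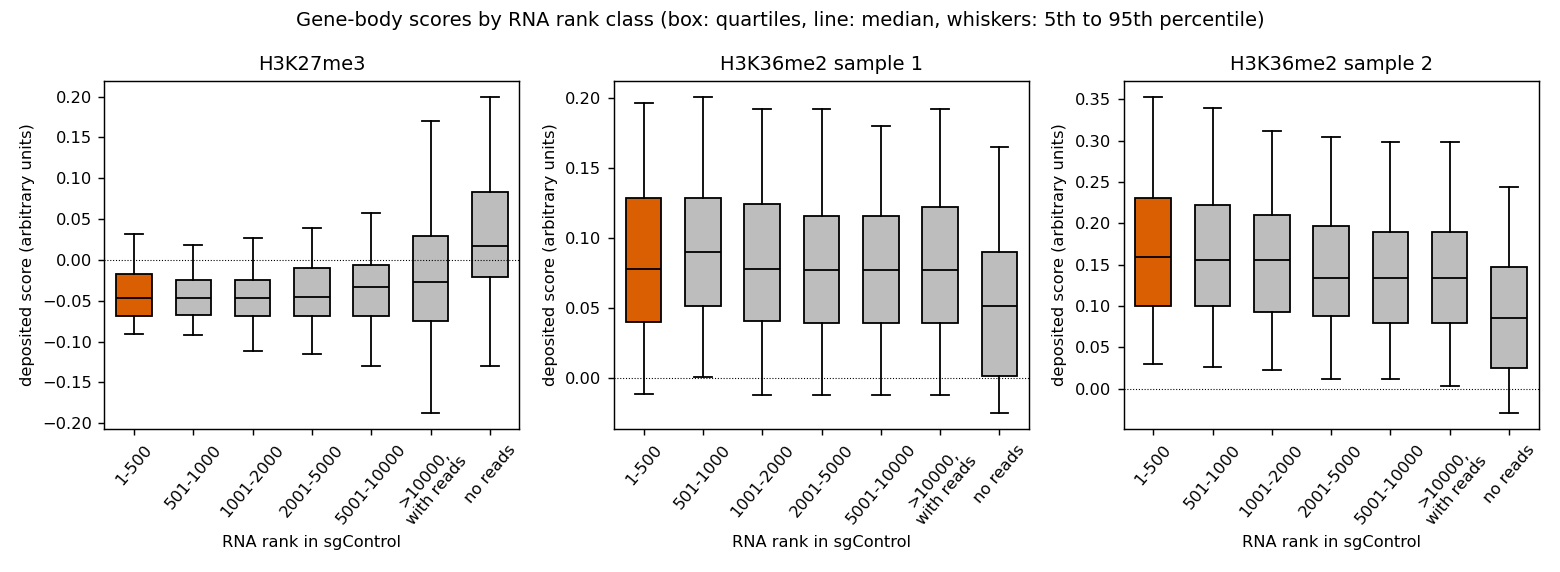
Deposited scores (arbitrary units) of gene bodies by RNA rank class in sgControl, for H3K27me3 and both H3K36me2 columns; boxes give the quartiles, lines the medians, whiskers the 5th to 95th percentile, and the members are in orange. The members' medians of -0.0466, 0.0776 and 0.160 lie near those of ranks 501 to 1000, and genes without reads stand apart with medians of 0.0169, 0.0514 and 0.0851.

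At the edge of the ranking, members just inside and genes just outside it had near-equal RNA. Aldh18a1, an enzyme of proline synthesis, Myo10, an unconventional myosin of filopodia, and Setd7, a lysine methyltransferase, had mean sgControl levels of 5612, 5606 and 5598 normalized counts at ranks 498, 499 and 500. Just outside, Gas1, Gars and Dstn had 5602, 5595 and 5576 normalized counts. For H3K36me2 sample 2 the 3 members scored 0.237, 0.0536 and 0.256, against 0.332, 0.0244 and 0.189 in the 3 genes outside, in the authors' deposited table. The H3K27me3 score of Gas1, a growth-arrest membrane protein, was 0.0159 in the authors' deposited table, and those of the other 5 were below 0.

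The members with the highest mean of both H3K36me2 columns were Thbs1, Pgk1, Ext1, Ptgs2, Acta2 and Marcks. Thbs1 (chr2:118111876-118127133), which encodes the matrix glycoprotein thrombospondin, scored 0.116 in sample 1 and 0.821 in sample 2 of the authors' deposited table. Pgk1 (chrX:106187100-106203699), a glycolytic kinase, scored 0.730 and 0.157 in the authors' deposited table. Ext1 (chr15:53068261-53346183), a heparan sulfate polymerase, scored 0.218 and 0.601 in the authors' deposited table. Thbs1 and Pgk1 thus owed their places mainly to a single column, while Ext1 was at percentiles 97.7 and 99.8 of all gene bodies. Ptgs2 (chr1:150100031-150108234), the inducible cyclooxygenase, scored 0.167 and 0.517 in the authors' deposited table. Acta2 (chr19:34240336-34255585), smooth muscle actin and a mark of contractile fibroblasts, scored 0.270 and 0.400 in the authors' deposited table. Marcks (chr10:37133243-37138926), an actin-binding substrate of protein kinase C, scored 0.143 and 0.484 in the authors' deposited table. Acta2 was the member of these 6 with the smallest distance between its columns.

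The 2 H3K36me2 columns ordered the members differently. Spearman's rho between them was 0.145 over the 475 members, against 0.133 at ranks 501 to 1000 and 0.222 over all non-mitochondrial gene bodies. It is given as a description, since gene bodies share libraries and many share an exact value. Sample 2 was above sample 1 in 364 members (76.6%), against 76.0% at ranks 501 to 1000 and 69.3% of all gene bodies. Of the 300 highest gene bodies of sample 2, 19 were members, which is 6.33% of that list and 4% of the members, where members are 2.11% of all gene bodies. Of the 300 highest of sample 1, 10 were members (3.33% of the list). At the low end, 7 members were among the 300 lowest of sample 1 and 0 among those of sample 2.

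The lowest members of single columns were picked after their values were seen, since no member had both columns below 0. In sample 1 of the authors' deposited table Ywhae, a 14-3-3 adaptor protein, was lowest at -0.114, while its sample 2 score was 0.176. Ywhab, another 14-3-3 protein, scored -0.0874 and 0.0545 in the authors' deposited table. The ferritin heavy chain Fth1 scored -0.0884 and 0.273, and the transcription factor Stat3 scored -0.0879 and 0.265, in the authors' deposited table. These low sample 1 scores went with sample 2 scores above 0 in all 4. In sample 2 of the authors' deposited table the lowest were Tenm3, a teneurin adhesion protein, and the actin-binding Dbn1, both at -0.0432, with sample 1 scores of 0.141 and 0.0524. Both columns were above 0.25 in Acta2, in the chemokine gene Cxcl12 (0.269 and 0.328), in the syndecan Sdc4 (0.306 and 0.298) and in the netrin receptor Neo1 (0.283 and 0.320) in the authors' deposited table.

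**Figure D2:**
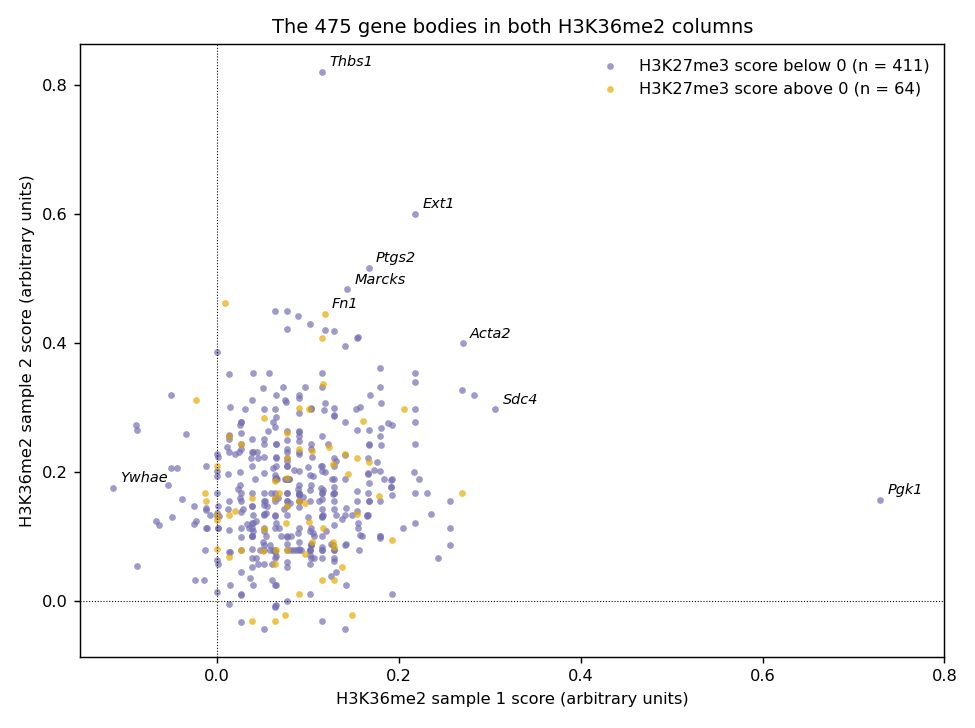
H3K36me2 sample 1 score against sample 2 score (arbitrary units) of the 475 member gene bodies, coloured by the sign of the H3K27me3 score. Thbs1 stands highest in sample 2 at 0.821 and Pgk1 farthest right in sample 1 at 0.730, and no point lies below 0 in both columns.

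Few members had high H3K27me3 scores. Grb10 (chr11:11930499-12037428), an imprinted gene for an adaptor of growth factor receptors, scored 0.379 in the authors' deposited table and was the single member among the 300 highest gene bodies. Syn3 (chr10:86048746-86498926), which encodes a synapsin, followed at 0.238 in the authors' deposited table. Timp3, a metalloproteinase inhibitor at RNA rank 13, lies within Syn3 (rank 34) at chr10:86300412-86349505 and scored -0.0725 in the authors' deposited table. Reads of these nested genes may have been shared in the authors' counting, so the RNA rank of Syn3 is uncertain. Ltbp1 (chr17:75005480-75392512), a matrix protein that binds latent TGF-beta, scored 0.233 in the authors' deposited table. Serinc1, a serine incorporator, scored 0.188 and Kirrel, a cell adhesion protein, scored 0.123 in the authors' deposited table. H3K36me2 scores of these 5 were above 0 in both columns, but those of Kirrel, 0.000608 and 0.0800 in the authors' deposited table, were at percentiles 12 and 31.3 of all gene bodies.

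The lowest H3K27me3 score in the authors' deposited table was -0.298 for Ptgis (chr2:167203194-167252150), the prostacyclin synthase, which was the single member among the 300 lowest gene bodies. For H3K36me2 it scored -0.038 and 0.159 in the authors' deposited table. Sh3pxd2a, a scaffold of podosomes, scored -0.169 and Trim28 (chr7:13024152-13031032), a transcriptional corepressor, scored -0.167 in the authors' deposited table. Rpn2, a subunit of the oligosaccharyltransferase, scored -0.162 and Snd1, a staphylococcal-nuclease domain protein, scored -0.161 in the authors' deposited table. Spearman's rho between H3K27me3 and H3K36me2 over the members was 0.026 for sample 1 and -0.015 for sample 2, against -0.125 and -0.134 over all non-mitochondrial gene bodies.

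Many members shared an exact score. To 6 decimals, 216 of 475 members had the same H3K27me3 score as another member, 122 in H3K36me2 sample 1 and 90 in sample 2. The commonest H3K27me3 score in the authors' deposited table, -0.0258, was held by 29 members, among them Col1a2, Flna and Dag1. No order was read among tied members.

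Within the members, the share with H3K27me3 above 0 was lowest at ranks 101 to 200 and highest at ranks 401 to 500. The share with H3K27me3 above 0 in the authors' deposited table was 11% of 91 members at ranks 1 to 100, 8.60% of 93 at ranks 101 to 200, 12.5% of 96 at ranks 201 to 300, 16.5% of 97 at ranks 301 to 400 and 18.4% of 98 at ranks 401 to 500. The exact intervals of the first (5.40% to 19.3%) and the last class (11.3% to 27.5%) overlap. Spearman's rho between RNA level and score was -0.137 for H3K27me3, 0.085 for H3K36me2 sample 1 and 0.036 for sample 2. Among the 250 highest-expressed genes alone, 9.48% of gene bodies were above 0 for H3K27me3 in the authors' deposited table. That share lies below the interval of all members, but these gene bodies are part of the members and their own interval is not given here. Members were longer than other genes, with a median of 32.8 kb (1.06 kb to 1297 kb), against 17 kb over all gene bodies with a position. H3K27me3 was above 0 in 2 of 44 members under 5 kb (4.55%) and in 17 of 103 members of 100 kb and over (16.5%) in the authors' deposited table. Other gene bodies with RNA gave 14.6% and 28.6% in the same length classes. In between, the members gave 12.9% against 14.4% at 5 to 20 kb, 13.6% against 17.9% at 20 to 50 kb and 15.1% against 22.3% at 50 to 100 kb. The members' exact interval held the other share in each class but that of 100 kb and over (9.92% to 25.1%). Spearman's rho with length was 0.081 for H3K27me3, 0.109 for H3K36me2 sample 1 and 0.045 for sample 2. Members lay on every autosome and on X, with 51 on chromosome 11, 34 on chromosome 1 and 7 on chromosome 18, and 76 of the 474 with a position overlapped another protein-coding gene.

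By role, 208 members fell into 16 lists of known function and 267 into none. The 12 collagens all had both H3K36me2 scores above 0, with medians of 0.0906 and 0.198 in the authors' deposited table, and 2 of them had H3K27me3 above 0. Col1a1, a chain of fibrillar type I collagen, scored -0.0903 for H3K27me3, 0.0902 for H3K36me2 sample 1 and 0.164 for sample 2 in the authors' deposited table. Its partner chain Col1a2 scored -0.0258, 0.107 and 0.101 in the authors' deposited table. Col3a1, a fibrillar collagen of soft tissues, scored -0.0477, 0.0908 and 0.315 in the authors' deposited table. These 3 collagens were alike in sample 1 and spread in sample 2.

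The 26 matrix glycoproteins, proteoglycans and matrix enzymes had median H3K36me2 scores of 0.111 and 0.152 in the authors' deposited table. They held the largest spread of sample 2, between -0.000189 for Sparc, a collagen-binding glycoprotein, and 0.821 for Thbs1 in the authors' deposited table. Fibronectin, Fn1 (chr1:71585473-71653280), scored 0.119 and 0.446 for H3K36me2 and 0.017 for H3K27me3 in the authors' deposited table. The 10 integrins and adhesion receptors had medians of 0.110 and 0.191 in the authors' deposited table. Dag1, dystroglycan, scored 0.180 and 0.361, against 0.0769 and 0.210 for the integrin beta chain Itgb1 in the authors' deposited table.

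The 39 members of the actin cytoskeleton had median H3K36me2 scores of 0.0902 and 0.175 in the authors' deposited table, and both scores were above 0 in 37. Actb, cytoplasmic beta-actin, scored 0.165 and 0.132, and the giant scaffold protein Ahnak scored 0.193 and 0.272, in the authors' deposited table. The actin crosslinker Flna scored 0.0259 and 0.160 in the authors' deposited table. The 6 intermediate filament and tubulin genes had medians of 0.0773 and 0.199, and Lmna, a lamin of the nuclear envelope, was the member below 0 in sample 2 at -0.00803, in the authors' deposited table. The 9 annexin, S100 and calcium-binding genes had medians of 0.0810 and 0.223 and no H3K27me3 score above 0 in the authors' deposited table.

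Genes of the translation machinery and of glycolysis had sample 1 medians below the 0.0776 of all members in the authors' deposited table. So did the ATP synthase, chromatin, proteasome, RNA-binding and intermediate filament lists, so this is not a trait of translation and glycolysis alone. The 17 ribosomal protein genes had a median of 0.0364 in sample 1 and 0.125 in sample 2 of the authors' deposited table, against 0.0644 and 0.126 in the 65 listed ribosomal protein gene bodies outside the 500. The 12 translation factors had medians of 0.0645 and 0.162 in the authors' deposited table, and Eef1a1, the elongation factor that delivers aminoacyl-tRNA, was high in both at 0.218 and 0.353. The 7 glycolysis genes had medians of 0.0395 and 0.0763 in the authors' deposited table despite the high sample 1 score of Pgk1. The 17 listed glycolysis gene bodies outside the 500 had 0.0773 and 0.114 in the authors' deposited table. Pkm, pyruvate kinase, scored 0.0143 and 0.0763, and the aldolase Aldoa scored 0.0395 and 0.0244, in the authors' deposited table. The 5 ATP synthase and mitochondrial carrier genes had medians of 0.0263 and 0.134, and Atp5b and Slc25a3 lay below 0 in sample 2 at -0.0321 and -0.0222, in the authors' deposited table.

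Among the remaining lists, the 16 chaperones had median H3K36me2 scores of 0.0790 and 0.150 in the authors' deposited table. Hspa8, the constitutive HSP70, scored 0.119 and 0.421, against 0.0135 and -0.00416 for Hsp90ab1, a cytosolic HSP90, in the authors' deposited table. The 16 RNA-binding and splicing genes had medians of 0.0717 and 0.122, the 12 lysosome and vesicle genes 0.0902 and 0.141, and the 7 proteasome and ubiquitin genes 0.0668 and 0.160 in the authors' deposited table. The 7 chromatin and transcription genes had medians of 0.0645 and 0.113, and the 7 iron, redox and amino acid genes 0.0902 and 0.136, in the authors' deposited table. The 267 members in no list had medians of 0.0776 and 0.168 in the authors' deposited table, near those of all members. The lists are small and no difference between them was tested.

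**Figure D3:**
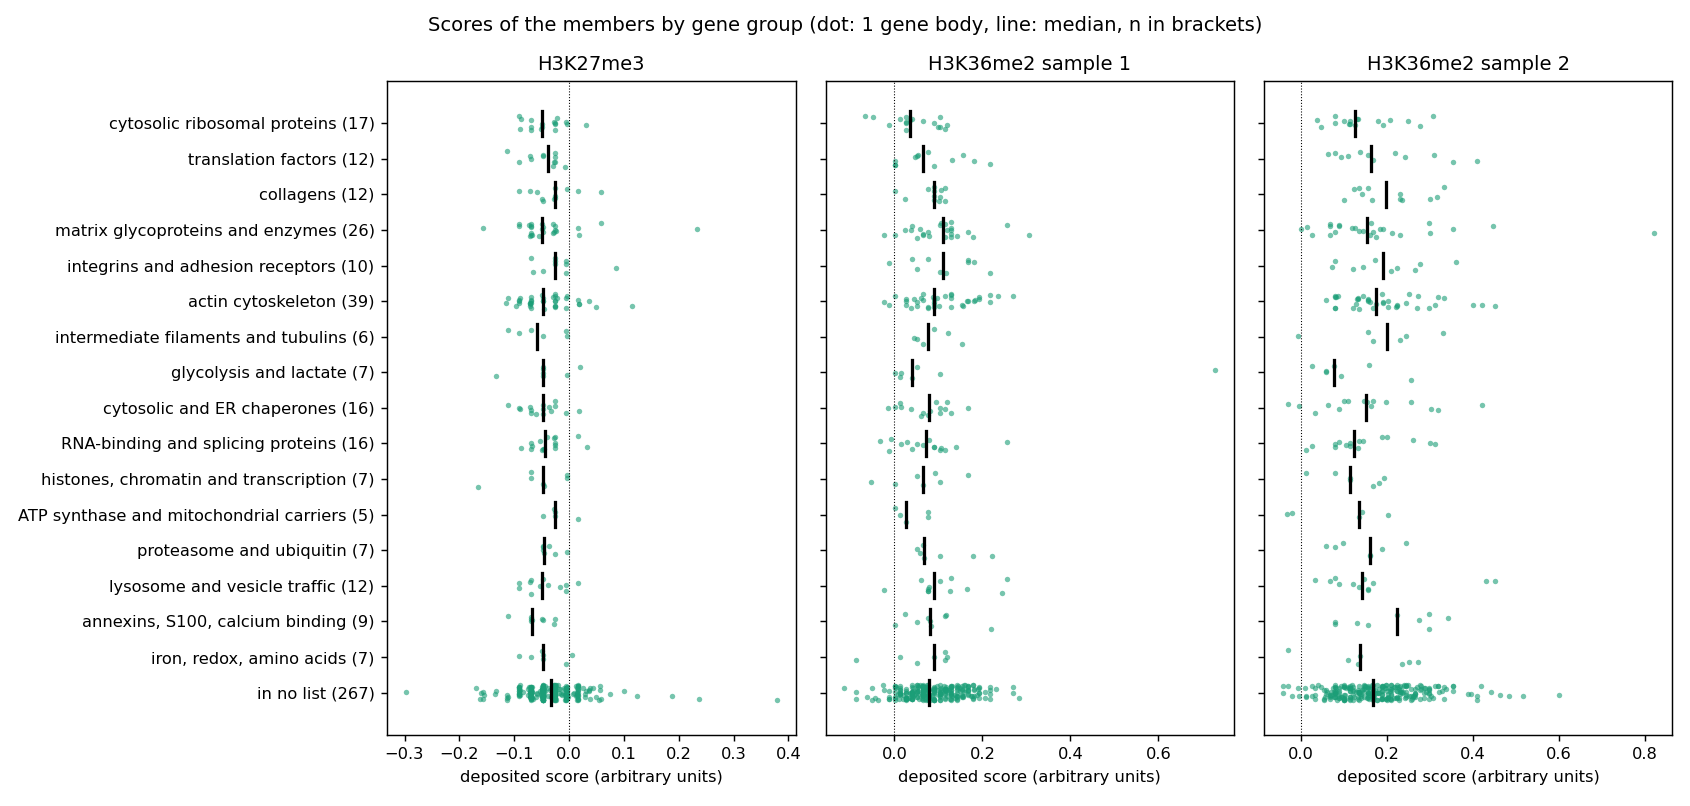
Deposited scores (arbitrary units) of the members by gene group, with 1 dot per gene body, a line at the median and the number of members in brackets. The lowest medians in H3K36me2 sample 1 are those of the ATP synthase and carrier (0.0263), ribosomal protein (0.0364) and glycolysis genes (0.0395), and the matrix glycoproteins spread widest in sample 2, up to 0.821.

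Of the 25 symbols without a row of their own, 12 had a gene body under a synonym and are not counted as members. Among these, Nsd3 itself, at RNA rank 120 and listed under Whsc1l1, scored -0.0268 for H3K27me3, 0.0517 for H3K36me2 sample 1 and 0.0664 for sample 2 in the authors' deposited table. Ccn2, a matricellular growth factor listed under Ctgf, scored 0.560 in sample 2 of the authors' deposited table. Cemip, a hyaluronan-binding protein listed under its clone name, scored 0.205 in sample 1 and -0.0859 in sample 2 of the authors' deposited table. The other 13 symbols, among them the noncoding RNAs Malat1, Neat1, Meg3, Rian and Rn7sk, had no row that could be matched.

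In RNA, members differed between the conditions by small amounts, and the balance of higher and lower calls moved with the scaling and with the condition used for ranking. The libraries labelled sgNSD3 were set against those labelled sgControl with limma over 18263 genes, and a gene was called where its Benjamini-Hochberg adjusted p lay below 0.05. Among the 475 members, 58 were higher and 113 lower in sgNSD3, so 36% were called, against 11.9% of all genes tested. By direction, 12.2% of the members were higher and 23.8% lower, against 5.44% and 6.44% of all genes tested. The 3 sgNSD3 and 3 sgControl levels did not overlap in 272 members (57.3%), against 28.5% of all. The choice of members used the sgControl values of this contrast, so nothing is read from the members' share itself. The share called was 29.4% at ranks 501 to 1000, 23.2% at ranks 1001 to 2000 and 6.55% below rank 10000.

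The differences were small, and 1 member lay beyond a log2 fold of 0.5 in either direction. The median absolute log2 fold was 0.063 in the members, against 0.0602 at ranks 501 to 1000 and 0.11 over all genes tested. Without sgNSD3 replicate 1 the members called were 42 higher and 75 lower, and without sgNSD3 replicate 2 they were 40 higher and 74 lower. After quantile normalization of the log2 values the split was 90 higher and 88 lower, and the members' median difference of -0.03 became 0.00. That scaling gives every library the same values at each rank. Since the members lie at the top of the ranking, it holds their typical difference near 0 by construction, and nothing is read from that split. With genes ranked on the sgNSD3 mean instead, 72 of 476 members were higher and 95 lower, and 0 lay beyond a log2 fold of 0.5. Without the filter on low counts 13 members were higher and 23 lower, and the named calls lost in that fit are given with its adjusted p below.

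**Figure D4:**
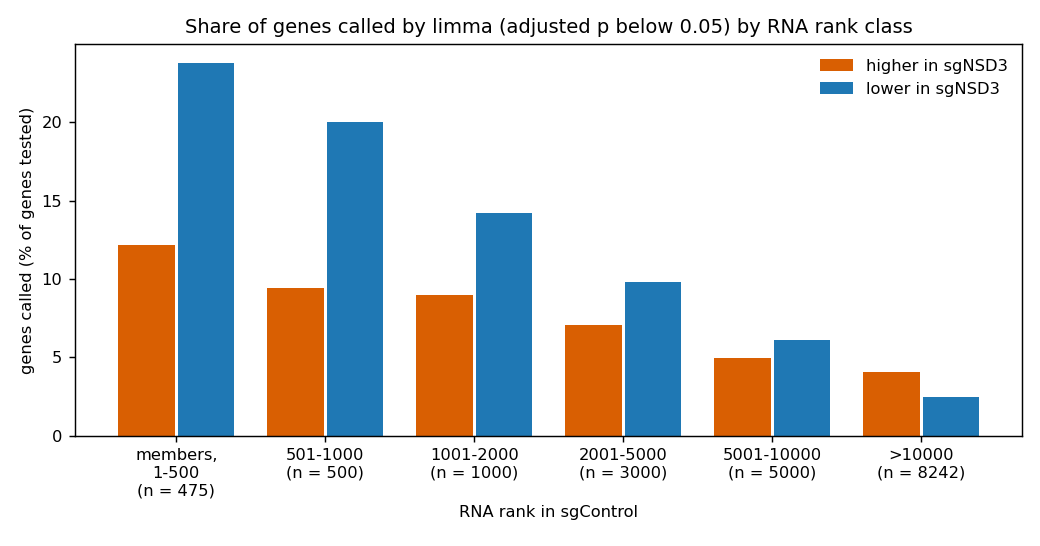
Share of genes called by limma (adjusted p below 0.05, % of genes tested) by RNA rank class in sgControl, with calls higher in sgNSD3 in orange and lower in blue. Both shares are largest in the members (12.2% and 23.8%) and decline along the ranks to 4.06% and 2.49%. After quantile normalization, not drawn here, the members called were 90 higher and 88 lower, but that scaling holds the members' typical difference near 0 by construction.

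Among the 10 members with the highest sgControl RNA, Fn1, Col1a1 and Ahnak were higher in sgNSD3 and the other 7 were not called. Fn1 had 387878, 388715 and 394739 normalized counts in sgNSD3, against 299279, 304519 and 316478 in sgControl. Its levels did not overlap, and it was 1.27-fold higher (log2 fold 0.35 ± 0.026 SE, limma adjusted p = 6.04e-08). Col1a1 had 431617, 429423 and 428560.5 in sgNSD3, against 415849.9, 369279.8 and 356539 in sgControl. It was 1.13-fold higher (limma adjusted p = 0.0055), but not called without sgNSD3 replicate 1 (adjusted p = 0.056) or replicate 2 (adjusted p = 0.055). Quantile normalization gave Col1a1 a difference of 0.00, since that scaling makes genes of equal rank equal. Ahnak averaged 119000.1 ± 1385 in sgNSD3 and 109372 ± 5091 in sgControl (SD, n = 3 each; limma adjusted p = 0.013), and was not called without sgNSD3 replicate 1 (adjusted p = 0.10), sgNSD3 replicate 2 (adjusted p = 0.10) or sgControl replicate 2 (adjusted p = 0.056). Col1a2 averaged 280299 in sgNSD3 and 300518 in sgControl (limma adjusted p = 0.083), and Actb, Sparc, Eef1a1, Flna, Timp3 and Col3a1 had adjusted p between 0.057 and 0.91. Without the filter on low counts Fn1, Col1a1 and Ahnak were not called (limma adjusted p = 1.00 for each).

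The 6 largest rises among members were Fbn1, Apol7d, Fn1, Tacc1, Igfbp4 and Ccnd2, and in each the conditions did not overlap. Fbn1, the microfibril protein fibrillin, had 30763, 30521 and 30978 normalized counts in sgNSD3, against 22671, 21426 and 21569.8 in sgControl. It was 1.41-fold higher (log2 fold 0.49 ± 0.026 SE, limma adjusted p = 5.32e-12), the largest rise. Apol7d had 10727, 9994 and 10386 in sgNSD3, against 8295, 7773 and 6922 in sgControl. It was 1.35-fold higher (limma adjusted p = 4.5e-08). Apol7d (chr1:71653335-71662843) is annotated as a long noncoding RNA directly beside the start of Fn1, and whether reads of Fn1 were counted in it was not tested. Tacc1, a centrosomal coiled-coil protein, had 7149, 7412 and 7229 in sgNSD3, against 5837, 5750.2 and 5650.0 in sgControl. It was 1.26-fold higher (limma adjusted p = 6.07e-09). Igfbp4, a binding protein of insulin-like growth factors, had 14234, 13935 and 14085 in sgNSD3, against 12917, 10917 and 10952 in sgControl. Its sgControl replicate 1 lay nearest to the sgNSD3 libraries, and it was 1.21-fold higher (limma adjusted p = 2.66e-05). Ccnd2, a D-type cyclin of the cell cycle, had 12349, 12289.7 and 12144 in sgNSD3, against 10367, 10507 and 10177 in sgControl. It was 1.18-fold higher (limma adjusted p = 5.14e-07). Without the filter on low counts, Apol7d (limma adjusted p = 0.13) and Igfbp4 (limma adjusted p = 0.32) were not called.

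The 6 largest falls were Vat1l, Rps26, Smpd3, Podxl, Cd63 and Tm4sf1, again without overlap between conditions. Vat1l, a homologue of a vesicle amine transport protein, had 4289.9, 4369.5 and 4196 normalized counts in sgNSD3, against 6117, 5981 and 6179.8 in sgControl. It was 1.42-fold lower (log2 fold -0.51 ± 0.030 SE, limma adjusted p = 6.25e-12), the single member beyond 0.5 on the log2 scale. Rps26, a protein of the small ribosomal subunit, had 4730.1, 4772 and 4526 in sgNSD3, against 6297, 6266 and 6511 in sgControl. It was 1.36-fold lower (limma adjusted p = 1.24e-10), though ribosomal protein genes have near-identical pseudogene copies that may share reads, so its level is uncertain. Smpd3, neutral sphingomyelinase, had 13208, 13603 and 13309 in sgNSD3, against 18384, 17379.8 and 17752 in sgControl. It was 1.33-fold lower (limma adjusted p = 1.03e-10). Podxl, the sialomucin podocalyxin, had 5772, 5728 and 6017 in sgNSD3, against 7744, 7665 and 7712 in sgControl. It was 1.32-fold lower (limma adjusted p = 2.82e-10). The tetraspanin Cd63 had 5561, 5537 and 5451 in sgNSD3, against 6786, 7768 and 6989 in sgControl, which was 1.30-fold lower (limma adjusted p = 5.83e-08). Tm4sf1, a tetraspanin-like membrane protein, had 9671, 9474 and 9634 in sgNSD3, against 12178, 12589 and 11554 in sgControl, which was 1.26-fold lower (limma adjusted p = 1.89e-08). Of these 6, Cd63 was not called without the filter on low counts (limma adjusted p = 0.098). Vat1l, Rps26 and Cd63 averaged 4285, 4676 and 5516 in sgNSD3, below the 5598 of rank 500 in sgControl. Their membership thus rests on the sgControl levels of this same contrast. With genes ranked on the sgNSD3 mean, 0 members lay beyond a log2 fold of 0.5.

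**Figure D5:**
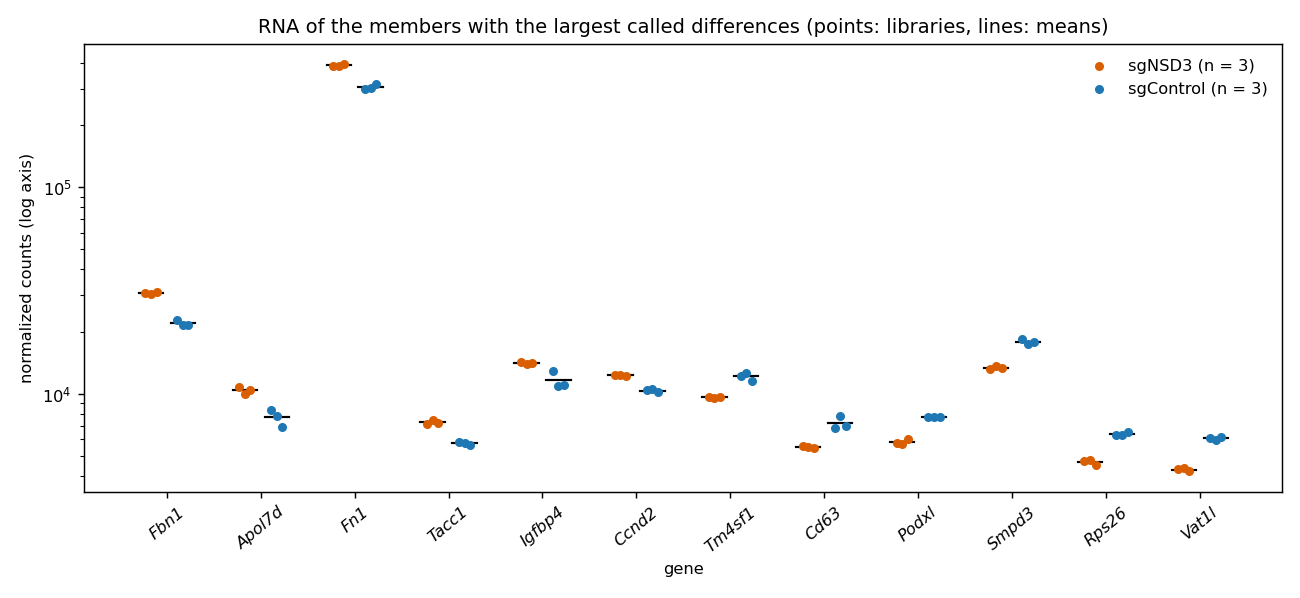
Normalized counts (log axis) of the 12 members with the largest called differences, with 1 point per library and lines at the means of 3 sgNSD3 (orange) and 3 sgControl (blue) libraries. The conditions do not overlap in any of the 12, with folds between 1.41-fold higher for Fbn1 and 1.42-fold lower for Vat1l.

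By role, the matrix glycoprotein list held the most rises, with 10. Of the 26 matrix glycoproteins, proteoglycans and enzymes, 10 were higher in sgNSD3 (38.5%) and 5 lower (19.2%). Over all members 12.2% were higher and 23.8% lower, and over all genes tested 5.44% and 6.44%. The median log2 fold of these 26 genes was 0.01, against 0.00 over all genes tested. Without sgNSD3 replicate 1, 10 were higher and 3 lower, and without sgNSD3 replicate 2, 9 were higher and 3 lower. Besides Fbn1 and Fn1, Thbs1 rose, with 64426, 64588 and 64811 normalized counts in sgNSD3, against 55786, 56849.5 and 55869.5 in sgControl (1.15-fold, limma adjusted p = 1.03e-05). The basement membrane protein Nid1, chosen after its value was seen, was 1.16-fold higher (limma adjusted p = 3.3e-06). In the other direction the adhesion-modulating Tnc, chosen likewise, was 1.11-fold lower (limma adjusted p = 0.000311). Ltbp1 averaged 8645 ± 226 in sgNSD3 and 8092 ± 64.1 in sgControl (SD, n = 3 each; limma adjusted p = 0.029), but was not called without sgNSD3 replicate 2 (adjusted p = 0.11), sgNSD3 replicate 3 (adjusted p = 0.20) or sgControl replicate 2 (adjusted p = 0.075). Thbs1 (limma adjusted p = 0.23), Tnc (0.070) and Ltbp1 (0.24) were not called without the filter on low counts. Of the 12 collagens, 4 were higher (33.3%) and 1 lower (8.33%), with a median log2 fold of 0.02. Of these, 0 were lower without any 1 sgNSD3 library, and 2 were lower without sgControl replicate 1 or 3.

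For the lists that follow, the background is 23.8% of all members lower and 12.2% higher, and 6.44% and 5.44% of all genes tested, and no difference between lists was tested. Of the 17 ribosomal protein genes 10 were lower (58.8%) and 0 higher in sgNSD3, with a median log2 fold of -0.12. After quantile normalization 9 were lower and 1 higher, and at an unadjusted limma p under 0.05 10 were lower and 1 higher. Rpsa, a protein of the small subunit, had 24947, 25316 and 24598 normalized counts in sgNSD3, against 30671, 29223 and 30139.6 in sgControl (1.2-fold lower, limma adjusted p = 1.91e-07). Rpl4, of the large subunit, was 1.09-fold lower (limma adjusted p = 0.0095), but not called without sgNSD3 replicate 2 (adjusted p = 0.053), without replicate 3 (adjusted p = 0.066) or without the filter on low counts (adjusted p = 0.44). Rplp0, of the ribosomal stalk, averaged 19732 in sgNSD3 and 18703 in sgControl (limma adjusted p = 0.099). Of the 12 translation factors limma called 0 either way, while 6 were lower and 0 higher at an unadjusted p under 0.05. Quantile normalization gave 2 lower and a log2(count + 1) scale gave 1 lower.

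Of the 10 integrins and adhesion receptors, 5 were lower (50%) and 0 higher, quantile normalization gave 5 lower and 1 higher, and at an unadjusted limma p under 0.05 6 were lower and 1 higher. Itgb1 had 23273, 24059 and 23625 normalized counts in sgNSD3, against 25610.4, 26979 and 26799 in sgControl (1.12-fold lower, limma adjusted p = 0.000274). Dag1 was 1.08-fold lower (limma adjusted p = 0.0085), but not called without sgNSD3 replicate 1 (adjusted p = 0.076) or replicate 2 (adjusted p = 0.057). Itgav, an integrin alpha chain, averaged 15796 in sgNSD3 and 16601 in sgControl (limma adjusted p = 0.085). Of the 39 actin cytoskeleton genes, 15 were lower (38.5%), 2 higher (5.13%) and 22 not called, with a median log2 fold of -0.04, whereas quantile normalization gave 11 lower and 7 higher. Without sgControl replicate 1, 18 were lower and 6 higher, and without sgNSD3 replicate 2, 10 were lower and 1 higher. The number higher was also 1 without sgNSD3 replicate 1 and without sgControl replicate 2. Without the filter on low counts, Itgb1 (limma adjusted p = 0.14) and Dag1 (0.053) were not called. The tropomyosin Tpm1, chosen after its value was seen, was 1.22-fold lower (limma adjusted p = 3.56e-08).

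Of the 7 glycolysis genes 4 were lower (57.1%) and 0 higher, with a median log2 fold of -0.10, and 2 were lower without sgNSD3 replicate 1. At an unadjusted limma p under 0.05, 6 were lower and 0 higher, and quantile normalization gave 3 lower and 0 higher. Pkm had 20832, 20547 and 21403 normalized counts in sgNSD3, against 24797, 23591 and 23854 in sgControl (1.15-fold lower, limma adjusted p = 1.64e-05). The enolase Eno1 was 1.14-fold lower (limma adjusted p = 4.26e-05), while Aldoa averaged 9858 in sgNSD3 and 10306 in sgControl (limma adjusted p = 0.18). Of the 9 annexin, S100 and calcium-binding genes 4 were lower (44.4%) and 0 higher, among them Anxa1, a phospholipid-binding protein, at 1.09-fold lower (limma adjusted p = 0.0025). Without sgNSD3 replicate 1, 2 of these 9 were lower. At an unadjusted limma p under 0.05, 5 were lower and 0 higher, and quantile normalization gave 3 and 0. Of the 16 chaperones 4 were lower (25%, near the share of all members) and 1 higher, quantile normalization gave 2 lower and 1 higher, and without sgNSD3 replicate 1, 2 were lower and 0 higher. Of these 16, 0 were higher without any 1 sgNSD3 library. Hspa8 was 1.11-fold lower (limma adjusted p = 0.000479), but not called after quantile normalization (adjusted p = 0.23). Without the filter on low counts, Pkm (limma adjusted p = 0.088), Eno1 (0.10), Anxa1 (0.10) and Hspa8 (0.15) were not called.

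The other lists held at most 2 calls each in either direction, which in a list of 7 genes is 28.6%. Lrp1, an endocytic receptor, was the single call among 12 lysosome and vesicle genes, with 37070.1, 36764 and 37755 normalized counts in sgNSD3, against 33955, 32284 and 32669 in sgControl (1.13-fold higher, limma adjusted p = 0.000108). The transcription factor Fos was 1.12-fold higher (limma adjusted p = 0.000523) among 7 chromatin and transcription genes, of which 2 were higher and 1 lower. Of these 7, 1 was lower without sgControl replicate 1 or 3 and 0 without any other single library, and 1 was higher without sgNSD3 replicate 1 or sgControl replicate 2. Ubr4, a ubiquitin ligase, was 1.10-fold higher (limma adjusted p = 0.0022) among 7 proteasome and ubiquitin genes, of which 2 were higher and 2 lower. Of the 16 RNA-binding genes 2 were higher and 1 lower, and of the 6 intermediate filament and tubulin genes 1 was lower. Without sgNSD3 replicate 1 or replicate 2, 0 of the RNA-binding genes were higher, and 0 of the filament and tubulin genes and 0 of the proteasome and ubiquitin genes were lower. Among the 5 ATP synthase and carrier genes limma called 0, with 2 lower and 0 higher at an unadjusted p under 0.05, and 0 after quantile normalization. Among the 7 iron, redox and amino acid genes limma called 0, with 2 lower and 1 higher at an unadjusted p under 0.05, and 2 higher after quantile normalization. Vim, vimentin, averaged 51820 in sgNSD3 and 51165 in sgControl (limma adjusted p = 0.75). Without the filter on low counts, Lrp1 (limma adjusted p = 0.14), Fos (0.19) and Ubr4 (0.18) were not called. The 267 members in no list held 34 rises and 60 falls.

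Scores of members called in RNA and of members not called covered overlapping ranges. In the H3K36me2 sample 2 column of the authors' deposited table, the score was above 0 in 58 of 58 members higher in sgNSD3, 113 of 113 lower and 291 of 304 not called. The median of sample 1 in the authors' deposited table was 0.0782 in members higher, 0.103 in members lower and 0.0774 in members not called. H3K27me3 was above 0 in 11 (19%), 16 (14.2%) and 37 (12.2%) of them in the authors' deposited table, with exact intervals that overlap. Spearman's rho between the RNA log2 fold and the score over the 475 members was 0.034 for H3K27me3, -0.042 for H3K36me2 sample 1 and -0.026 for sample 2. Of the H3K36me2-high members, Thbs1 was higher in sgNSD3. Ptgs2 had 12424, 12764 and 12219 normalized counts in sgNSD3, against 12992, 14236 and 14399 in sgControl, and was 1.11-fold lower (limma adjusted p = 0.0025), but not called without the filter on low counts (adjusted p = 0.43). Pgk1, Ext1, Acta2 and Marcks were not called (limma adjusted p between 0.30 and 0.91). Of the 10 members at the ends of H3K27me3, Ltbp1 alone was called.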

How the data were processed

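RNA was measured in 6 libraries and chromatin in 8 samples. The submitters' processing notes name the mm10 build and the tools DESeq2, featureCounts and HISAT2, whose versions and settings are not given in the sources used here. The authors deposited RNA as log2 values normalized between libraries, in which a gene without reads sits at 8.4511, as on the variance-stabilised scale of DESeq2. Inverting that transform gave whole counts, within 0.05, for 100% of values above 0, from which totals and normalized counts were taken. The authors deposited the chromatin values as a signed score per gene body, with no unit and no value per library, so no test between conditions was possible.

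The RNA test was limma's (version 3.58.1, under R 4.3.3, eBayes with trend) on the deposited log2 values of genes with a mean of at least 8 normalized counts (18263 of 55433), with Benjamini-Hochberg adjustment over all of them. A fold is the mean normalized count in sgNSD3 over that in sgControl, and a log2 fold with its SE is limma's on log2(normalized count + 1). The test was checked on simulated data. The deposited log2 scale compresses differences of low genes most. Among the members, Fn1 had a difference of 0.35 on both scales. Vat1l had -0.45 on the deposited scale, against -0.51 on log2(normalized count + 1). Scores were summarised with Python 3.11.15 and pandas 2.3.3 as counts, medians and exact intervals. Positions and start-site stretches came from RefSeq, and 474 members had a position.

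The members, lists and named genes were chosen with earlier results of these data known. Named genes were the 10 members highest in sgControl RNA, 3 genes on each side of rank 500, the 6 highest by mean H3K36me2 and the 5 at each end of H3K27me3, the 6 largest called rises and falls in RNA without overlap, and up to 3 per list with the highest RNA. Predicted symbols were left out, and not every gene of the last group is printed. The rule also asked for the 6 lowest by H3K36me2 with both scores below 0, of which there were 0. sgNSD3 replicates are numbered by sample title, which differs from the numbers of the deposited columns.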

Additional observations from a re-analysis of the deposited data

How the results depend on the processing

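Medians of the scores kept their sign under every alternative tried, but the shares and the median given next lay outside the members' intervals. With the 250 highest-expressed genes, 9.48% of gene bodies had H3K27me3 above 0. Ranked per kb of gene length, 417 gene bodies gave 8.87% above 0 and a median H3K36me2 sample 2 score of 0.147 in the authors' deposited table. Adding the synonyms, or leaving out the 20 members farthest from a column median, both chosen after seeing the data, moved no share or median outside its interval.

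Without a filter on low counts, limma called 13 members higher and 23 lower in sgNSD3, and 171 and 172 of all genes. In that fit 25 named calls were lost, given beside their values apart from Calr, Calu, Ctnnb1, Uba1 and Myo10. Quantile normalization called 90 members higher, a split of 50.6% higher among those called, against 33.9%. The cause was not tested in either case. Leaving out 1 library at a time gave 40 to 76 members higher and 74 to 134 lower, and 641 to 993 higher and 707 to 1164 lower among all genes. The counts over all genes were lowest without an sgNSD3 library.

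A fit with the replicate number as a block called 59 members higher and 116 lower, and 1119 and 1333 of all genes. Deviations of same-numbered libraries correlated at 0.054, 0.024 and -0.015, so the numbers were not taken to pair them. No named call was lost under the block. Named calls lost without 1 library are given beside their values, apart from Calr, Calu, Ctnnb1 and Uba1. Precision is limited by 3 libraries per condition, and for the scores the depth is unknown.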
